A study of Mus musculus with 76 samples.

Results

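The RNA levels of 9 mouse genes for the amyloid precursor protein family, tau, the secretases and the brain apolipoproteins were followed in cultures that embryonic stem cells had formed on differentiation into neurons. The genes were App, Aplp1, Aplp2, Mapt, Bace1, Psen2, Ncstn, Apoe and Clu, taken by symbol from a deposited table of 38924 genes as substrates of the kinase DYRK1A in neurodegeneration or partners of those substrates, and all 9 were found. The cultures came from embryonic stem cells of C57BL/6J mice (B6) and of the wild-derived strain WSB/EiJ (WSB), and were treated with ID-8, an inhibitor of DYRK1A, or served as controls. At the neural progenitor stage (NPC) each strain had 6 control and 6 ID-8 libraries. At the maturation stage each strain had 4 control and 4 ID-8 libraries. At the axon stage, control and ID-8 cultures of each strain were left uncut or were cut (axotomy), with 4 libraries per group except for 3 in B6 ID-8 cut and 3 in WSB ID-8 uncut. In all, 70 libraries fell into 16 groups, and every group was a culture of stem cell origin with no transgene named in the labels. The dose and duration of ID-8 and the number of stem cell lines per strain are not given in the sources used here, so the replicates measure the spread between cultures.

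The amyloid precursor protein, encoded by App, and its relatives Aplp1 and Aplp2 are membrane proteins that are cut within or near the membrane. Bace1 encodes the beta-secretase that makes the first cut towards amyloid beta, and Psen2 and Ncstn encode presenilin 2, a catalytic subunit, and nicastrin, a structural subunit, of the gamma-secretase complex that makes the next. Mapt encodes tau, the microtubule-binding protein of axons, which DYRK1A can phosphorylate. Apoe and Clu encode the secreted lipid carriers apolipoprotein E and clusterin, which in brain are made largely by astrocytes and which bind amyloid beta.

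In build GRCm38 the genes lie at chr16:84949685-85173766 (App, ENSMUSG00000022892, minus strand), chr7:30434982-30445535 (Aplp1, ENSMUSG00000006651, minus), chr9:31149557-31211815 (Aplp2, ENSMUSG00000031996, minus), chr11:104231390-104332090 (Mapt, ENSMUSG00000018411, plus), chr9:45838580-45864399 (Bace1, ENSMUSG00000032086, plus), chr1:180227004-180263438 (Psen2, ENSMUSG00000010609, minus), chr1:172066013-172082795 (Ncstn, ENSMUSG00000003458, minus), chr7:19696109-19699188 (Apoe, ENSMUSG00000002985, minus) and chr14:65968483-65981547 (Clu, ENSMUSG00000022037, plus). All 9 are annotated as protein coding. Bace1 overlaps Rnf214 on the opposite strand, and 30.55% of the 50-base stretches of its principal transcript also occur in transcripts of other genes, 15.45% in those of Rnf214. Ncstn shares 5.15% with its opposite-strand neighbour Copa and App shares 2.11% with Gm49227, while the other 6 shared none. The strand setting of the counting is not given in the sources used here, so the values of Bace1 and Ncstn are uncertain by what their overlapping neighbours may have added.

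RefSeq promoters (build GRCm38.p6, 250 bases before to 50 after the RefSeq start) were matched for 6 of the 9 genes. The Psen2 window, at chr1:180256251-180256550, lies inside the gene bounds given above and not at their upstream end. The promoters of App and Aplp1, which fell with ID-8 in B6 progenitors, and of Apoe, which rose there, are shown. They are written 5′ to 3′ in the direction of the gene, each from the minus strand, and capitals mark GGGCGG on either strand, the core of the GC box that Sp1 family factors bind. App is at chr16:85173658-85173957, Aplp1 at chr7:30445533-30445832 and Apoe at chr7:19699139-19699438.
App: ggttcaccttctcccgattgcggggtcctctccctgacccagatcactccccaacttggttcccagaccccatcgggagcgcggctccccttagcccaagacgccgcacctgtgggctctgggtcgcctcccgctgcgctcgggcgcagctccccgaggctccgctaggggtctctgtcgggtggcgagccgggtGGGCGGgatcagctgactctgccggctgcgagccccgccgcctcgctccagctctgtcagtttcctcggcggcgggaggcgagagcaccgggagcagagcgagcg
Aplp1: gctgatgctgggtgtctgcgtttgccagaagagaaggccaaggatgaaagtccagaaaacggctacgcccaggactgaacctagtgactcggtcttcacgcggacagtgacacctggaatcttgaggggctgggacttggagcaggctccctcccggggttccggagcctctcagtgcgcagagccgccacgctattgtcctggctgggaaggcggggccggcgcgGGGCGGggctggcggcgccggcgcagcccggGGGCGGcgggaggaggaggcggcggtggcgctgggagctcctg
Apoe: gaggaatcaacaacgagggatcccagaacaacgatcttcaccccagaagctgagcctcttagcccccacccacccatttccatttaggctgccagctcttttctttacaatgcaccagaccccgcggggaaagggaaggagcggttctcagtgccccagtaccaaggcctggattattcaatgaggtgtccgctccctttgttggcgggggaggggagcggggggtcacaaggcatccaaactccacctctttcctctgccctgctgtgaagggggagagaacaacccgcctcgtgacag
The App window held GGGCGG 1 time and the Aplp1 window 2 times, and the Apoe window held none. Aplp2 and Psen2 held it 4 times each and Ncstn 0 times, against 35.9% of all 32544 promoters of the same length with at least 1. The App promoter was 71% G and C with 30 CpG, Aplp1 68.7% with 26 and Apoe 57.7% with 10, against medians of 53% and 7 over all promoters. A search for TATAAA found none in any of the 6, against 13.6% of all promoters. These counts describe letters and show no binding.

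Library totals ran from 20.4 to 131.5 with a median of 37.4, in units of 1e6 expected counts, and all 9 genes were above 1 count per 1e6 (CPM) in 70 of 70 libraries. By the library numbers in the labels, libraries fell into 3 blocks, called library blocks here. What these blocks stand for is not given in the sources used here. The first held NPC, the second NPC and axon, and the third maturation and the 4 axon libraries of 1 WSB culture set. The deposited batch numbers differ between those 4 axon libraries (5) and the maturation libraries (6). All 12 pan-neuronal markers reached 1 CPM in every group, and the 10 microglia and macrophage markers summed to between 0.478 and 43.3 CPM per library, with 1 to 3 of them reaching 1 CPM in each group. The reference that WSB reads were aligned to is not given in the sources used here beyond the build GRCm38, and the part of strain sequence differences in the counts was not tested. The culture names put the axon libraries into 4 sets per strain, called B1 to B4 and W1 to W4 here. The names also put replicates 1 and 2 of each maturation group into 1 culture experiment and replicates 3 and 4 into another. Set W1 and the WSB ID-8 cut library of set W3 (replicate 3) stood apart from the other WSB axon libraries, and results that rest on them are given with and without them where that was run. All levels below are CPM on library totals, without TMM scaling. Log2 differences from the fits, which use TMM scaling, carry standard errors after ±. A call means an adjusted p under 0.05 in edgeR's quasi-likelihood test over all genes of a fit. In bulk RNA, fewer cells of a type and less RNA per cell cannot be told apart.

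Of the 9 genes, Apoe and Clu had the widest ranges of group means. Mean Apoe ran from 40.5 CPM in WSB control progenitors to 3360 CPM in WSB ID-8 uncut axon cultures, which is 83.0-fold, and mean Clu from 11.9 CPM in WSB ID-8 progenitors to 1092 CPM in WSB control cut axon cultures, 91.6-fold. Mapt ran 19.6-fold, from 80.1 CPM in B6 ID-8 progenitors to 1570 CPM in B6 control uncut axon cultures. The range was 5.52-fold for Aplp1, 3.90-fold for App and 2.77-fold for Bace1, and all 3 had their lowest mean in B6 ID-8 progenitors, as did Mapt. Psen2 varied 3.47-fold, from 5.79 CPM in WSB ID-8 progenitors to 20.1 CPM in WSB ID-8 mature cultures. Ncstn varied 2.41-fold and Aplp2 2.15-fold. For App, Aplp1, Aplp2, Psen2, Ncstn and Apoe, each group overlapped the next one in the order of mean levels. For Mapt, Bace1 and Clu a pair of neighbouring groups did not overlap, but for Mapt and Clu groups farther apart in the order still did. Mapt went down to 469.9 CPM in WSB ID-8 cut axon cultures and up to 621 CPM in WSB ID-8 progenitors. Clu went down to 173.9 CPM in WSB ID-8 uncut axon cultures and up to 181.6 CPM in B6 ID-8 progenitors. Per kilobase of transcript, Psen2 had the lowest mean level of the 9 genes in 16 of 16 groups, 2.87 to 9.94 CPM per kb of principal transcript. Apoe had the highest per kb in 9 of 16 groups, Mapt in 5 and App in 2, but with merged exon lengths these numbers were 13, 1 and 0, and 2 for Aplp1.

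**Figure D1:**
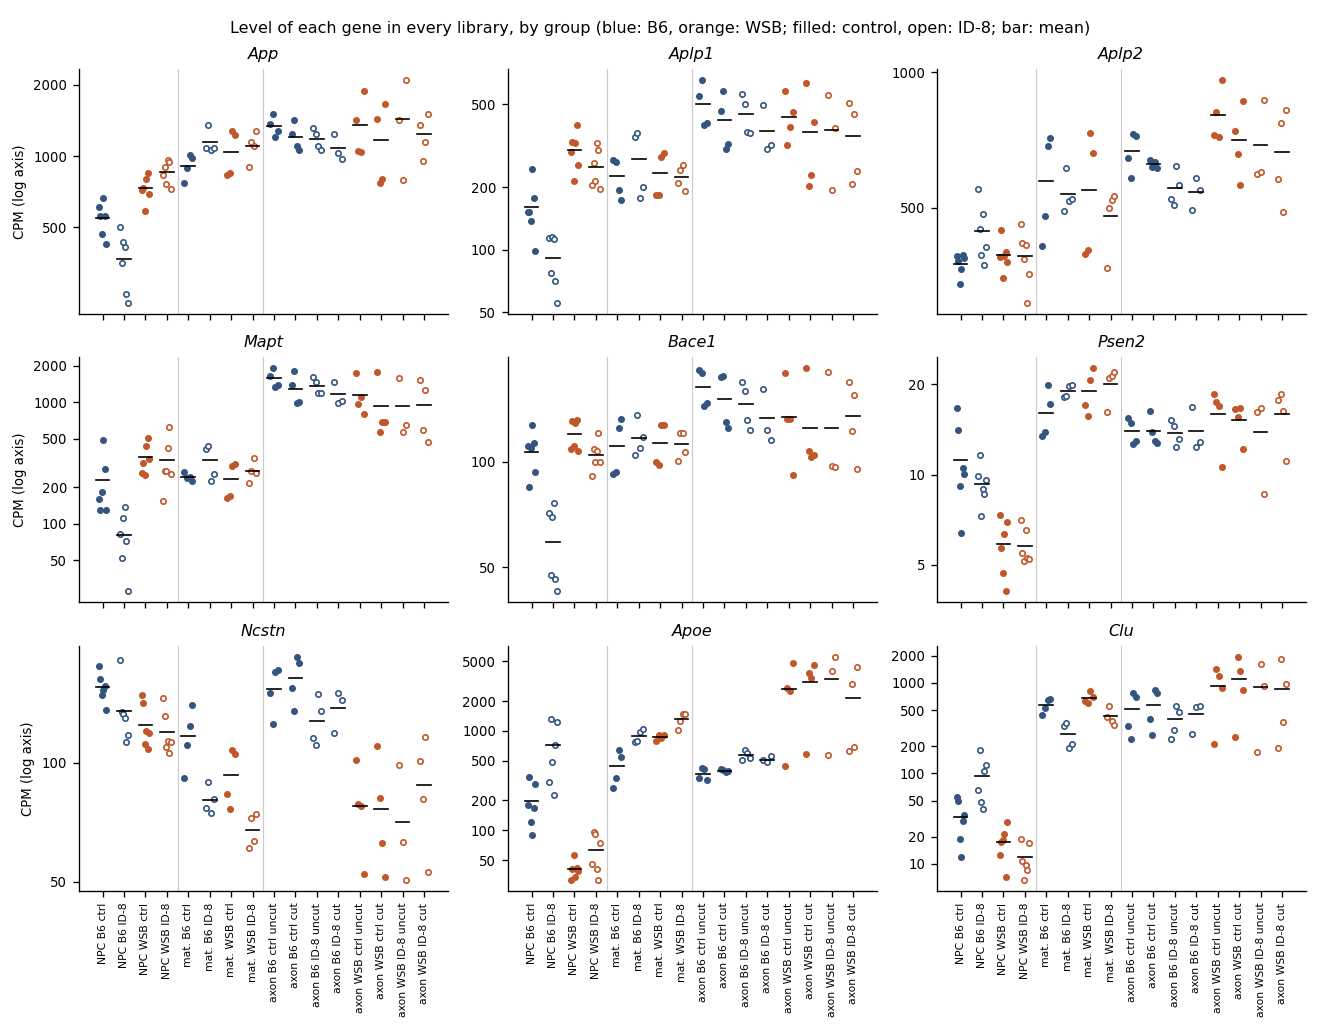
Level of each gene in CPM on a log axis in all 70 libraries by group, with bars at group means; blue is B6, orange is WSB, filled points are controls and open points ID-8. Mean Mapt is highest in the 8 axon groups, mean Clu is lowest in the 4 progenitor groups, and the B6 ID-8 progenitors hold the lowest means of App, Aplp1, Mapt and Bace1.

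In control progenitors the strains differed in 5 of the 9 genes, against 44.8% of the 17512 genes tested (19.7% higher and 25% lower in WSB). WSB progenitors had more App and Aplp1 RNA and less Psen2, Ncstn and Apoe RNA than B6. Apoe showed the widest gap. Among the substrates, App ranged from 424 to 664 CPM with a median of 556 in B6 and from 584 to 851 CPM with a median of 726 in WSB. Aplp1 ranged from 98.2 to 244 CPM with a median of 152 in B6 and from 214 to 399 CPM with a median of 311 in WSB. The WSB libraries were higher with overlap for both genes, and the log2 differences (WSB minus B6) were 0.48 ± 0.15, adjusted p = 0.0122 for App and 0.98 ± 0.21, adjusted p = 0.000637 for Aplp1. Mapt, at 129 to 486 CPM with a median of 169.7 in B6 and 252 to 505 CPM with a median of 328 in WSB, differed by 0.72 ± 0.33, adjusted p = 0.0763, which did not pass, and in the first library block alone it passed at 0.87 ± 0.26, adjusted p = 0.0315. App passed in neither the first block alone (0.36 ± 0.16, adjusted p = 0.114) nor the second alone (0.56 ± 0.21, adjusted p = 0.0981). Aplp2 (0.12 ± 0.09) and Bace1 (0.23 ± 0.13) did not pass.

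Of the gamma-secretase genes, Psen2 ranged from 6.41 to 16.6 CPM with a median of 10.3 in B6 and from 4.08 to 7.34 CPM with a median of 6.01 in WSB. Ncstn ranged from 136 to 176 CPM with a median of 154 in B6 and from 108.5 to 148 CPM with a median of 119.5 in WSB. Both were lower in WSB with overlapping groups, with log2 differences of -0.86 ± 0.19, adjusted p = 0.000944 for Psen2 and -0.26 ± 0.09, adjusted p = 0.0178 for Ncstn. The Ncstn call was lost without the library block (adjusted p = 0.0975) and in the first library block alone (0.316). Apoe ranged from 88.9 to 346 CPM with a median of 175 in B6 and from 31.7 to 56.3 CPM with a median of 39.7 in WSB. Every WSB library was below every B6 library, and the difference was -2.24 ± 0.42, adjusted p = 0.000202. Clu, 12.0 to 54.2 CPM with a median of 32.2 in B6 and 7.12 to 29.2 CPM with a median of 17.9 in WSB, overlapped and did not pass (-0.84 ± 0.41, adjusted p = 0.0945). Summed pluripotency markers moved with these differences, at 477 to 1310 CPM in B6 and 41.9 to 76.5 CPM in WSB, and their part in the strain differences was not tested. Pan-neuronal sums, at 3668 to 4805 CPM in WSB, lay within the B6 range of 1891 to 5498 CPM. In the second library block alone 2 of the 9 genes were called, Ncstn and Apoe, against 16.3% of all genes.

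**Figure D2:**
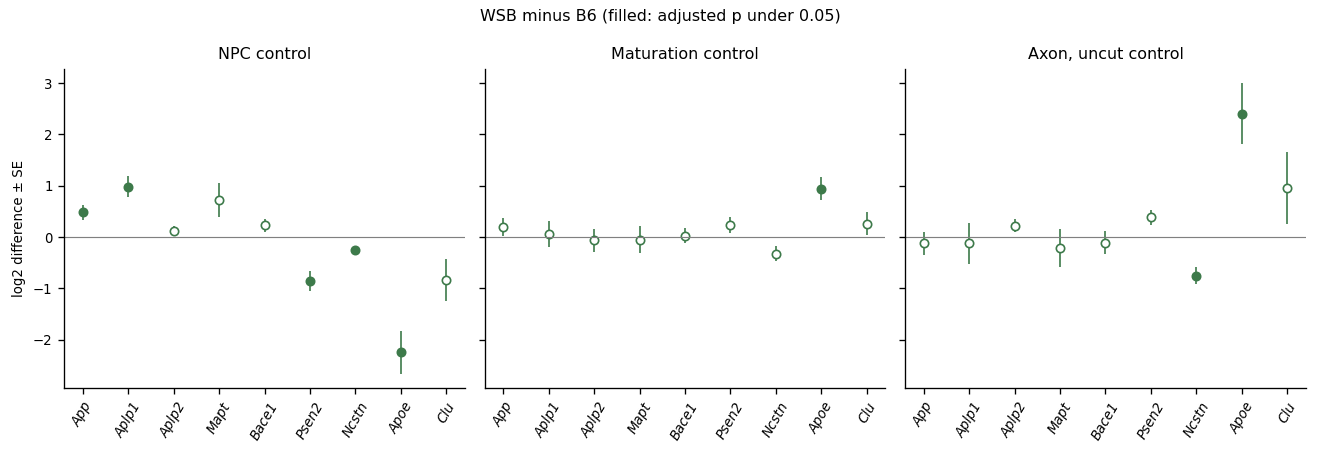
Log2 difference (WSB minus B6) of each gene in control cultures at 3 stages, with bars of ± 1 SE; filled points had an adjusted p under 0.05. Apoe sits at -2.24 in progenitors, 0.94 at maturation and 2.41 at the axon stage.

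ID-8 changed 7 of the 9 genes in B6 progenitors, against 40.1% of the 17512 genes tested (18.3% higher and 21.8% lower). App, Aplp1, Mapt and Bace1 fell, and Aplp2, Apoe and Clu rose. App ranged from 240.0 to 499.7 CPM with a median of 384 under ID-8, against a control median of 556 CPM, and the difference was -0.52 ± 0.15, adjusted p = 0.0092. Aplp1 ranged from 55.4 to 115.4 CPM with a median of 94.9 and fell by 0.75 ± 0.21 on the log2 scale (adjusted p = 0.00695). For both genes the groups overlapped. Aplp2, a paralog of App, ranged from 338 to 391 CPM with a median of 383 in controls and from 372 to 551 CPM with a median of 428 under ID-8, a rise of 0.30 ± 0.09, adjusted p = 0.0129 with overlapping groups. Mapt ranged from 27.7 to 136 CPM with a median of 76.7 under ID-8 and changed by -1.34 ± 0.33, adjusted p = 0.00334, with overlap of the lowest controls and the highest ID-8 libraries.

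Bace1 separated the treatments in B6 progenitors. It ranged from 84.5 to 128 CPM with a median of 110.2 in controls and from 42.7 to 76.3 CPM with a median of 58.6 under ID-8. No ID-8 library reached the lowest control, and the difference was -0.79 ± 0.13, adjusted p = 0.000103. The gamma-secretase genes did not pass, with -0.17 ± 0.19, adjusted p = 0.484 for Psen2 and -0.14 ± 0.09, adjusted p = 0.196 for Ncstn. Apoe ranged from 227 to 1322 CPM with a median of 604 under ID-8, and Clu from 12.0 to 54.2 CPM with a median of 32.2 in controls and 40.7 to 182 CPM with a median of 85.9 under ID-8. Both genes were higher under ID-8 with overlap of the groups, by 1.95 ± 0.41, adjusted p = 0.000992 for Apoe and 1.60 ± 0.41, adjusted p = 0.00403 for Clu. Over the 3 replicates of the first library block alone, 1 of these genes was called (Bace1, -0.63), against 7.98% of all genes, and with replicate number as a block 4 were (Aplp2, Mapt, Bace1 and Apoe, but not App, Aplp1 or Clu), against 11.3%. In the second library block, with the culture name as a block, 6 were called, all of the 7 but Aplp2, against 43.4%. That fit was chosen after seeing the data, and without the culture name Aplp1 did not pass either (adjusted p = 0.0521).

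Marker genes of other cell types moved with these changes. The summed endoderm and yolk sac markers were 29.4 to 114 CPM in B6 controls and 179 to 2223 CPM under ID-8, and 11 of the 12 rose. Pan-neuronal marker sums were 1891 to 5498 CPM in controls and 347 to 2828 CPM under ID-8, fibroblast and mesenchyme sums 136 to 344 and 317 to 1762 CPM, and pluripotency sums 477 to 1310 and 1075 to 2519 CPM. Astrocyte sums were 274 to 346 CPM in controls and 448.6 to 644.5 CPM under ID-8, where 6 of the 10 markers reached 1 CPM. Choroid plexus marker sums were 16.3 to 45.6 CPM in controls and 66.0 to 334 CPM under ID-8. Both lists thus separated without overlap too. The B6 ID-8 libraries with the most Apoe and Clu RNA were among those with the highest endoderm and yolk sac sums, and the library with the least Mapt had the lowest neuronal sum. The part of these markers in the changes of Apoe, Clu, Mapt, App, Aplp1 and Bace1 was not tested.

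**Figure D3:**
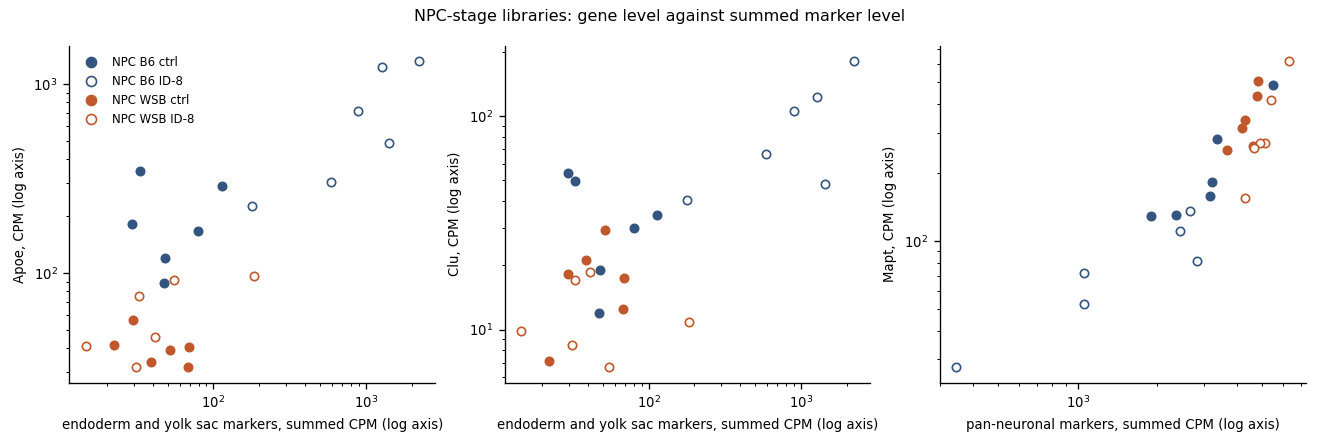
Level of Apoe (left), Clu (middle) and Mapt (right) in the 24 progenitor libraries against the summed level of endoderm and yolk sac or pan-neuronal markers, all in CPM on log axes; blue is B6, orange WSB, filled control and open ID-8. The 6 B6 ID-8 libraries lie between 179 and 2223 CPM of endoderm and yolk sac markers, to the right of all controls, 1 WSB ID-8 library reaches 184 CPM, and the B6 ID-8 libraries go down to 347 CPM of neuronal markers.

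In WSB progenitors ID-8 changed 0 of the 9 genes, against 9.46% of the genes tested, in edgeR and in DESeq2, and 0 were at an unadjusted p under 0.05. Apoe ranged from 31.8 to 97.0 CPM with a median of 60.7 under ID-8, overlapping its controls (0.66 ± 0.40, adjusted p = 0.336). App ranged from 724 to 963 CPM with a median of 863 (0.25 ± 0.15, adjusted p = 0.329), and Clu from 6.66 to 18.6 CPM with a median of 10.3 (-0.54 ± 0.40, adjusted p = 0.45). Mapt, at 155 to 621 CPM with a median of 270.5, and Bace1, at 91.1 to 120.5 CPM with a median of 104, had estimates of -0.08 ± 0.33 and -0.17 ± 0.13. The endoderm and yolk sac sums were 22.3 to 68.7 CPM in WSB controls and 14.6 to 184 CPM under ID-8. The response to ID-8 differed between strains for 2 of the 9 genes, against 3.17% of all genes: App, whose response was 0.76 ± 0.21, adjusted p = 0.0479 higher in WSB than in B6, and Clu, at -2.14 ± 0.57, adjusted p = 0.0419. Both calls were near the threshold and were lost without the low-count filter (adjusted p = 0.0575 and 0.0663). For the others the difference of responses did not pass, 0.62 ± 0.18, adjusted p = 0.0608 for Bace1, 1.26 ± 0.47, adjusted p = 0.124 for Mapt and -1.29 ± 0.57, adjusted p = 0.185 for Apoe. In the second library block with the culture name as a block, 6 differences were called, those of App, Aplp1, Mapt, Bace1, Apoe and Clu, against 16.6% of all genes. That fit was chosen after seeing the data. In the second block without the culture name, App (adjusted p = 0.267) and Clu (0.263) did not pass. Nor did they in the first block alone (0.527 and 0.633).

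**Figure D4:**
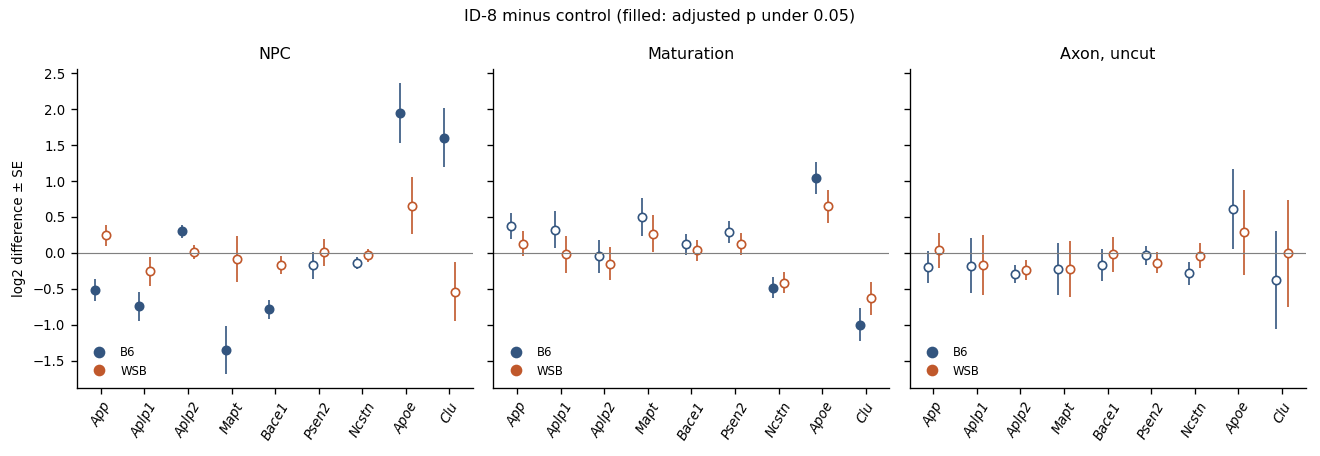
Log2 difference (ID-8 minus control) of each gene in B6 (blue) and WSB (orange) at the NPC, maturation and uncut axon stages, with bars of ± 1 SE; filled points had an adjusted p under 0.05. Filled points are 7 in B6 progenitors and 3 in B6 mature cultures, and Clu lies above 0 in the first (1.60) and below 0 in the second (-1.0).

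In mature control cultures Apoe was the 1 gene of the 9 called between strains, against 14.8% of the 16954 genes tested. It was 268, 337, 643 and 548 CPM in the 4 B6 libraries and 796, 912, 848 and 902 CPM in the 4 WSB libraries. All WSB libraries were above all B6 libraries, the reverse of the order in progenitors, and the difference was 0.94 ± 0.23, adjusted p = 0.0105. Summed astrocyte markers, a list of genes of the main Apoe-making cells of brain, were 848 to 5034 CPM in B6 and 4028 to 4852 CPM in WSB, and their part in the Apoe difference was not tested. Ncstn had a difference of -0.32 ± 0.15, adjusted p = 0.155, and the other 7 genes were between -0.06 and 0.26.

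ID-8 changed 3 of the 9 genes in mature B6 cultures, against 17.1% of the genes tested (7.71% higher and 9.41% lower). Apoe rose, and Clu and the gamma-secretase gene Ncstn fell. Apoe was 777, 798, 976 and 1043 CPM under ID-8, above every B6 control. Clu was 444, 528, 645 and 664 CPM in controls and 335, 361, 191 and 211 CPM under ID-8. Ncstn was 91.4, 111, 124 and 140.1 CPM in controls and 77.03, 89.3, 74.8 and 81.1 CPM under ID-8. For all 3 genes the treated and control libraries did not overlap. The share of all genes without overlap is not given here for any comparison. The differences were 1.04 ± 0.23, adjusted p = 0.00548 for Apoe, -1.0 ± 0.23, adjusted p = 0.00769 for Clu and -0.49 ± 0.15, adjusted p = 0.0315 for Ncstn. The Ncstn call was lost in 6 of 8 fits that each left out 1 library, control replicate 2, 3 or 4 or ID-8 replicate 1, 3 or 4 (adjusted p up to 0.119), and without the low-count filter (0.0736). App was 769.6, 886, 1010 and 980.1 CPM in controls and 1083, 1354, 1061 and 1083 CPM under ID-8, which also did not overlap but did not pass (0.38 ± 0.18, adjusted p = 0.165). Mapt (0.50 ± 0.26, adjusted p = 0.207) and Bace1 (0.12 ± 0.15, adjusted p = 0.633), both lower under ID-8 in B6 progenitors, did not pass here and had positive estimates.

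In mature WSB cultures 0 of the 9 genes passed in edgeR, against 5.89% of the genes tested, and 1 passed in DESeq2, against 10.7% of all genes. In edgeR 3 were at an unadjusted p under 0.05, a count given without the share of all genes. Apoe was 1031, 1254, 1477 and 1475 CPM under ID-8, Clu was 624, 605, 806 and 703 CPM in controls and 418, 559.6, 383 and 346 under ID-8, and Ncstn was 83.6, 76.5, 107.8 and 105.1 CPM in controls and 60.8, 72.6, 63.3 and 74.4 under ID-8. In each of the 3 genes the treated and control libraries did not overlap, a description with no share of all genes beside it. The differences were 0.65 ± 0.23, adjusted p = 0.111 for Apoe, -0.63 ± 0.23, adjusted p = 0.125 for Clu and -0.41 ± 0.15, adjusted p = 0.117 for Ncstn. With the culture experiment as a block, Apoe (0.63, adjusted p = 0.0205) and Ncstn (-0.40, adjusted p = 0.0475) passed and Clu (-0.65, adjusted p = 0.0624) did not, against 14.2% of all genes. No difference of the ID-8 response between strains was called among the 9 (0.46% of all genes), with -0.39 ± 0.32 for Apoe and 0.37 ± 0.32 for Clu. Oligodendrocyte lineage marker sums were higher under ID-8 without overlap in both strains, 56.8 to 194 and 269 to 449 CPM in B6 control and ID-8 cultures and 125 to 164 and 215 to 271 CPM in those of WSB. Fibroblast and mesenchyme sums separated in B6 (2059 to 2983 and 545 to 889.8 CPM) and overlapped in WSB (2361 to 5740 and 1063 to 3799 CPM). Astrocyte sums overlapped in B6 (848 to 5034 and 2598 to 5218 CPM) and separated in WSB (4028 to 4852 and 5981 to 7812 CPM). Neural progenitor sums separated in B6 (671 to 1127 and 1222 to 1754 CPM) and overlapped in WSB (912 to 1437 and 969 to 2161 CPM). These ranges pool the culture experiments. Within each experiment the B6 astrocyte sums also separated, at 848 and 1146 against 2598 and 3137 CPM, and at 4723 and 5034 against 5218 and 5090 CPM. So did the WSB fibroblast and mesenchyme and neural progenitor sums. The part of these marker sums in the values of Apoe, Clu and Ncstn was not tested.

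At the axon stage, uncut controls of the strains differed in 2 of the 9 genes, against 13.2% of the 18106 genes tested (5.68% higher and 7.56% lower): Apoe was higher and Ncstn lower in WSB. Apoe was 334, 421, 415 and 318 CPM in sets B1 to B4 and 439.8, 2712, 2505 and 4804 CPM in sets W1 to W4. The W1 library was just above the highest B6 library and the other 3 WSB libraries were far above it. Ncstn was 150.5, 125, 169.5 and 171 CPM in B6 and 101.9, 78.9, 77.96 and 52.2 CPM in WSB, every WSB library lower. The differences were 2.41 ± 0.59, adjusted p = 0.00877 for Apoe and -0.76 ± 0.17, adjusted p = 0.00416 for Ncstn, and both calls held in all 8 fits that left out 1 library, from 2.19 to 2.80 and from -0.84 to -0.67. Clu (0.95 ± 0.70, adjusted p = 0.419) and Psen2 (0.38 ± 0.14, adjusted p = 0.0702) did not pass, though Psen2 did in DESeq2 (adjusted p = 0.0347).

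The levels of Apoe, Clu and Mapt in WSB axon cultures went with the culture set. Over all treatments, Apoe was 440 to 624 CPM in the 4 libraries of set W1, 2712 to 3970 CPM in W2 and 4386 to 5541 CPM in W4. Clu was 174 to 249 CPM in W1 and 1427 to 1932 CPM in W2, and Mapt was 1517 to 1786 CPM in W1 and 566 to 969 CPM in W2. Set W1 thus had the least Apoe and Clu and the most Mapt of the 4 WSB sets. Astrocyte marker sums were 1802 to 2013 CPM in W1 and 8936 to 18868 CPM in W2 to W4 without the library that stood apart, and 2066 to 3834 CPM in the B6 sets. Pan-neuronal sums were 5627 to 6245 CPM in W1 and 1916 to 4236 CPM in those other WSB libraries. In the WSB ID-8 cut library of set W3, Apoe was 697 CPM and Clu 370.4 CPM with an astrocyte sum of 4265 CPM, against 2505 to 3381 CPM of Apoe in the other W3 libraries. The part of these markers in the levels of Apoe, Clu and Mapt was not tested.

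**Figure D5:**
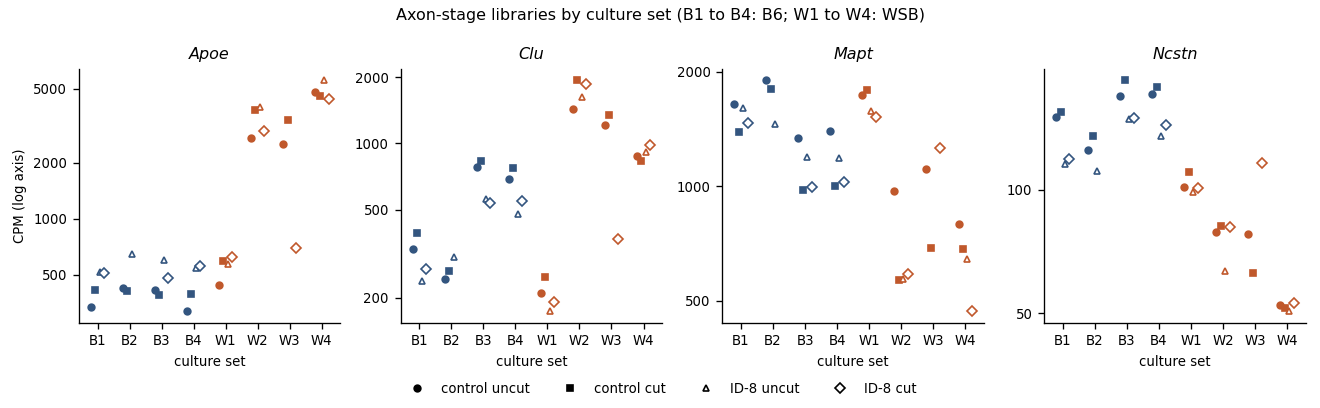
Level of Apoe, Clu, Mapt and Ncstn in CPM on log axes in the 30 axon libraries by culture set (B1 to B4 B6, W1 to W4 WSB), with a symbol per treatment. Symbols of 1 set lie close together in Apoe except in W3, with set W1 at 440 to 624 CPM of Apoe beside the B6 sets and the W3 ID-8 cut library at 697 CPM.

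Without the culture set in the fit, axotomy and ID-8 changed 0 of the 9 genes at the axon stage in either strain, and 0% of the 18106 genes were called in each of those 8 comparisons by edgeR. At an unadjusted p under 0.05 there were 72 to 1183 genes for cutting and 675 to 1380 for ID-8, and DESeq2 called 1 to 17 and 12 to 97 genes. Of the 9 genes, 1 was at an unadjusted p under 0.05 in any of them (Aplp2 under ID-8 in uncut B6), and DESeq2 called 0. With the culture set as a block, edgeR called 0 to 1 genes for cutting, and for ID-8 it called 1.22% of 18576 genes in uncut B6, 3.06% in uncut WSB, 1.48% in cut B6 and 1.86% in cut WSB, with 0 of the 9 among them. Within culture sets, small shifts of some of the 9 genes had 1 direction in B6. In the 7 pairs of a cut and an uncut B6 library of the same set and treatment, drawn from 4 sets, App, Aplp1, Mapt and Bace1 were lower after cutting in all 7, with median log2 differences of -0.12, -0.24, -0.25 and -0.09. Ncstn was higher in all 7, with a median of 0.06. The other genes went both ways, with Aplp2 lower in 6 of 7 pairs, Apoe in 4, Psen2 in 3 and Clu in 1. The genes unanimous in B6 showed no such unanimity in WSB. There App, Aplp1 and Mapt were lower in 5 of 7 pairs each and Bace1 in 4, and Ncstn was higher in 5. Pan-neuronal marker sums were also lower after cutting in 7 of 7 pairs in each strain, and fibroblast and mesenchyme, microglia and macrophage and neural progenitor sums were higher in 7 of 7 in B6 and 6 of 7 in WSB. Their part in the shifts of App, Aplp1, Mapt, Bace1 and Ncstn was not tested. These pair counts, and those for ID-8 below, are descriptions, since pairs of 1 set share their culture. The share of all genes with 7 of 7 pairs in 1 direction is not given here.

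For ID-8 in B6 axon cultures, Apoe was 515, 649, 596 and 539 CPM uncut and 511, 482 and 554 CPM cut, and in both cases every ID-8 library was above every control. In the 7 within-set pairs it was higher by 0.31 to 0.76, with a median of 0.52. Ncstn was lower in all 7 with a median of -0.31, and App, Aplp2 and Bace1 were lower in all 7 with medians of -0.13, -0.23 and -0.12. Clu was lower in 6 of 7 with a median of -0.49, Aplp1 in 5, and Mapt and Psen2 in 4 each. With the culture set as a block and without the WSB library that stood apart, the rise of Apoe in uncut B6 (0.61 ± 0.12, adjusted p = 0.00594) and in uncut WSB (0.43 ± 0.13, adjusted p = 0.0358) was called, as was the fall of Ncstn in uncut (-0.29 ± 0.07, adjusted p = 0.0284) and cut B6 (-0.31 ± 0.08, adjusted p = 0.0362). That fit was chosen after seeing the data. In it 4.36% of 18513 genes were called in uncut B6, 10.9% in uncut WSB, 3.97% in cut B6 and 1.72% in cut WSB, where 0 of the 9 were. In the same 7 B6 pairs, astrocyte, oligodendrocyte lineage and pluripotency marker sums were higher under ID-8 in all 7, and fibroblast and mesenchyme and microglia and macrophage sums lower in all 7. Their part in the values of Apoe, Ncstn, App, Aplp2, Bace1 and Clu was not tested. Without the culture set in the fit, but with the library block, the estimates were 0.61 ± 0.55 for Apoe and -0.29 ± 0.16 for Ncstn in uncut B6, with adjusted p = 1 for both. In uncut WSB they were 0.28 ± 0.59 for Apoe and -0.04 ± 0.18 for Ncstn, and with 1 library left out in turn they ran from -0.51 to 0.79 and from -0.17 to 0.15, on both sides of 0. In cut WSB cultures, with the library that stood apart, Apoe was -0.61 and Ncstn 0.22, neither called. Within the cut WSB pairs Apoe was 0.08 in W1, -0.38 in W2, -2.28 in W3, which holds that library, and -0.06 in W4. Over the 7 WSB pairs for ID-8, Apoe was higher in 4 and lower in 3, and Ncstn was lower in 5. App was lower in 4 of them, Aplp2 in 6, Bace1 in 3 and Clu in 4.

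Between progenitors and uncut axon cultures in B6 controls, 7 of the 9 genes rose, against 61.6% of the 19564 genes called in either direction (29.6% higher and 32.1% lower). Clu and Mapt rose most. Mapt was 1649, 1897, 1341 and 1394 CPM in axon cultures, far above every progenitor library, and its difference was 2.57 ± 0.35, adjusted p = 6.13e-09. Clu was 333, 242, 779 and 694 CPM, a rise of 4.00 ± 0.56, adjusted p = 1.26e-08. App was 1362, 1502, 1203 and 1276 CPM and rose by 1.32 ± 0.18, adjusted p = 1.16e-08. None of these groups overlapped the progenitors. Aplp1 (1.63 ± 0.30, adjusted p = 6.46e-06), Aplp2 (0.86 ± 0.14, adjusted p = 5.78e-07) and Bace1 (0.61 ± 0.18, adjusted p = 0.00245) also rose. Psen2 rose by 0.44 ± 0.17, adjusted p = 0.0236, a call lost without the library block (adjusted p = 0.196) and without uncut control replicate 2 (0.0797). Apoe (1.01 ± 0.46, adjusted p = 0.0521) and Ncstn (0.09 ± 0.13, adjusted p = 0.577) did not pass, though Apoe did in DESeq2 (adjusted p = 0.0322) and in edgeR without uncut control replicate 1, 3 or 4 (adjusted p from 0.029).

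In WSB controls 6 genes rose and Ncstn fell between progenitors and axon cultures, against 57.3% of genes called (28.3% higher and 29.1% lower). The lipid carriers rose most, Apoe by 5.67 ± 0.52, adjusted p = 7.73e-14 and Clu by 5.81 ± 0.58, adjusted p = 1.56e-12. Psen2 was 18.6, 17.4, 17.0 and 10.6 CPM, above every progenitor library, and rose by 1.69 ± 0.17, adjusted p = 2.08e-12. App (0.73 ± 0.19, adjusted p = 0.000755), Aplp2 (0.98 ± 0.15, adjusted p = 7.4e-08) and Mapt (1.65 ± 0.36, adjusted p = 7.37e-05) rose too. Ncstn fell by 0.39 ± 0.14 on the log2 scale (adjusted p = 0.012), and this call was lost without uncut control replicate 2 or replicate 3 (adjusted p up to 0.203) and in the second library block alone (0.0507). Aplp1 (0.53 ± 0.31) and Bace1 (0.28 ± 0.18) did not pass. The change with stage differed between strains for 2 of the 9 genes, against 8.04% of all genes: it was larger in WSB by 4.65 ± 0.67, adjusted p = 4.67e-06 for Apoe and by 1.25 ± 0.23, adjusted p = 0.000267 for Psen2. The median log2 difference of the 9 genes was 1.02 in B6 and 0.98 in WSB, beside -0.05 and -0.01 over all genes. The Clu difference between strains (1.81 ± 0.73, adjusted p = 0.112) passed without the W1 control library (adjusted p = 0.0479). Astrocyte marker sums moved with stage, from 274 to 346 CPM in B6 and 331 to 441 CPM in WSB control progenitors to 2197 to 2971 and 1802 to 14067 CPM in uncut axon controls, and their part in the rise of Apoe, Clu and Psen2 was not tested.

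Maturation libraries and progenitors fell in different library blocks, and the adjustment between the blocks rested on the 4 WSB axon libraries of set W4. Those 4 carry another deposited batch number than the maturation libraries, so maturation cannot be told apart from its own batch. With the block, 2 genes rose in B6, where 62.2% of all genes were called (33.1% higher), and 3 rose in WSB, where 63.2% were called (34.5% higher). Psen2 rose by 1.21 ± 0.23, adjusted p = 7.64e-06 in B6 and by 2.32 ± 0.23, adjusted p = 5.86e-13 in WSB. Clu rose by 4.13 ± 0.74, adjusted p = 3.2e-06 in B6 and by 5.25 ± 0.75, adjusted p = 2.39e-08 in WSB, and Apoe by 3.08 ± 0.64, adjusted p = 3.66e-05 in WSB. The Apoe estimate in B6 was -0.11 ± 0.62. Without the block 6 genes were called in B6, against 66% of all genes, where App was 0.73, Apoe 1.15 and Ncstn -0.42, each of the opposite sign to the estimate with the block. Without B6 control replicate 1, Bace1 and Ncstn were called too, Bace1 also without replicate 2, and in WSB Ncstn was called without control replicate 2. The medians of all genes were 0.13 in B6 and 0.17 in WSB with the block and 0.02 and 0.10 without it. The change differed between strains for 2 genes, against 15.2% of all genes, larger in WSB by 3.19 ± 0.65, adjusted p = 0.000464 for Apoe and by 1.11 ± 0.23, adjusted p = 0.000598 for Psen2. Astrocyte marker sums lay at 274 to 346 CPM in B6 control progenitors and at 848 to 5034 CPM in mature B6 controls, and in WSB at 331 to 441 and at 4028 to 4852 CPM. Fibroblast and mesenchyme sums lay at 136 to 344 and at 2059 to 2983 CPM in B6 progenitor and mature controls and at 200.5 to 444 and at 2361 to 5740 CPM in those of WSB, and the part of these markers in the rise of Clu, Apoe and Psen2 was not tested.

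Further genes of the same pathways were read from 5 lists: 9 other secretase genes, 13 tested APP adaptors and amyloid handling genes, 13 tau kinases and phosphatases, 9 other microtubule-associated proteins and 10 apolipoprotein receptor and lipid export genes. Counts in a list are given beside the share of all genes called, and nothing particular to a list is read from them. Under ID-8 in B6 progenitors, where 21.8% of all genes fell and 18.3% rose, 8 of 13 tau kinase and phosphatase genes fell and 0 rose, among them the tau kinases Mark1 (-1.03) and Gsk3b (-0.68), with a list median of -0.44 beside -0.03 over all genes. Of the microtubule-associated proteins 4 of 9 fell, including Map1a (-1.25), Map6 (-1.04) and Map1b (-1.01), and 0 rose. Of the APP adaptors and amyloid handling genes 7 of 13 fell and 2 rose, with the App-binding adaptor Apbb1 at -0.90 and the amyloid-degrading protease Ece1 at -0.79. Among other secretase genes, the gamma-secretase gene Aph1b (-0.77) and the alpha-secretase gene Adam10 (-0.31) fell, and 1 of 9 rose. Of the receptor and lipid export genes 2 of 10 rose, Lrp2 by 2.91, and 2 fell, Lrp1 (-0.91) and the reelin receptor gene Lrp8 (-0.54). In WSB progenitors, where 9.46% of all genes were called, 0 of 13 tau kinase genes and 0 of 10 receptor genes were called, and in the other 3 lists 2 secretase genes, 2 adaptor genes and 1 microtubule gene fell and 1 adaptor gene rose.

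Between strains in control progenitors, where 19.7% of all genes were higher and 25% lower in WSB, 6 of 13 tau kinase and phosphatase genes were higher in WSB and 0 lower, with Mark1 at 0.77 and the catalytic phosphatase subunit gene Ppp2ca at 0.26. Of the amyloid handling genes 5 of 13 were lower and 0 higher, among them the amyloid-degrading protease genes Ide (-0.84) and Mme (-1.43). Of the receptor and lipid genes 4 of 10 were lower, with Apoc1, a neighbour of Apoe in the genome, at -2.35 and Lrp2 at -1.21, and 2 were higher, with the apolipoprotein E receptor gene Vldlr at 1.28. Of the secretase genes 3 of 9 were higher and 1 lower, and of the microtubule genes 0 higher and 1 of 9 lower.

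In mature B6 cultures, where ID-8 raised 7.71% of all genes and lowered 9.41%, it raised 3 of 13 tau kinase and phosphatase genes and lowered 0, with Fyn at 0.67, and raised 3 of 9 microtubule genes, with Map6 at 0.72, and lowered 1. Of the amyloid handling genes 3 of 13 fell, including Mme (-1.97) and the gene of the APP-binding membrane protein Itm2b (-0.48), and 1 rose. The liver X receptor gene Nr1h3, a regulator of lipid export genes, fell by 1.42 on the log2 scale and Lrp2 by 1.05, the 2 of 10 receptor and lipid genes called. Of the secretase genes 1 of 9 rose and 1 fell. Map6 thus fell with ID-8 in B6 progenitors and rose in B6 mature cultures.

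From progenitors to uncut axon cultures in B6, where 29.6% of all genes rose and 32.1% fell, 10 of 13 tau kinase and phosphatase genes rose and 2 fell, with Cdk5 at 1.04 and its activator gene Cdk5r2 at 2.15. Of the microtubule genes 6 of 9 rose, with Map1a at 2.74, and 1 fell, Map7 at -2.64. Of the secretase genes 4 of 9 rose and 0 fell, with the Bace1 paralog Bace2 at 5.71. Of the amyloid handling genes 5 of 13 rose, with Itm2b at 2.37, and 2 fell. Of the receptor and lipid genes 3 of 10 rose, with the lipid exporter gene Abca1 at 2.01, and 4 fell, with Apoc1 at -4.21, opposite in sign to the estimate for Apoe. In WSB, where 28.3% of all genes rose and 29.1% fell, the counts risen and fallen were 4 and 2 of 13 for tau kinases and phosphatases, 4 and 3 of 9 for microtubule genes, 3 and 2 of 9 for secretase genes, 5 and 0 of 13 for amyloid handling and 4 and 3 of 10 for receptors and lipid export. Between strains in uncut axon controls, where 13.2% of all genes were called, 1 amyloid handling gene was higher in WSB (Ece2, 0.89) and 1 lower (Mme, -1.70), and in the other 4 lists no gene was called by edgeR.

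The genes whose levels ran most like those of each member were read from the Pearson correlation of log2 CPM over the 70 libraries, which fall into 3 stages, among 12475 genes. Over the libraries Mapt was closest to Tmem229b (r = 0.97) and Gnaz (0.96), and Aplp1 to Apbb1 (0.96), which encodes an adaptor of the APP family. Clu was closest to Lxn (0.95) and Itm2b (0.94). Psen2 was closest to Dcaf12l1 (0.94), Bace1 to Pde10a (0.93), Apoe to Efhd1 (0.92), App to Kif3a (0.91), Ncstn to Pgap3 (0.86) and Aplp2 to Ptpra (0.82). Among the members themselves, Aplp1 with Mapt (0.90), Aplp1 with Bace1 (0.86) and Apoe with Clu (0.85) had the highest r, while Ncstn was negative against each of the other 8, from -0.67 with Apoe to -0.01 with Bace1. These values describe libraries that share stage, strain, culture set and library block.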

How the data were processed

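Polyadenylated RNA was sequenced from 76 samples; runs of the same library (6 libraries) were summed, which left 70 libraries. The authors deposited expected counts per gene for 38924 Ensembl genes, of which 37607 carried a symbol in the GENCODE annotation of GRCm38 and 9.32% of the values were not whole. The submitters' processing notes name RSEM, Bowtie2, featureCounts and limma, with the build GRCm38, and per the labels' protocols the libraries were stranded; versions and the strand setting are not given in the sources used here. RSEM divides reads shared by genes between them, which bears on Bace1 and Ncstn. No column of the table was left unassigned to a sample.

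Sums were rounded to whole numbers and, after TMM scaling and filterByExpr, fitted in edgeR 4.0.16 (R 4.3.3; quasi-likelihood, robust), with 1 fit per stage and 1 across stages. The library block was a term in the NPC, axon and stage fits. P-values were adjusted by Benjamini-Hochberg over all genes tested, and calls were made under 0.05. These p-values measure the spread between cultures. At maturation, libraries of 1 culture experiment counted as separate replicates, and the main axon fit held no term for the culture set. Levels, marker sums and within-set log2 differences are from CPM on library totals, without TMM scaling. The log2 CPM of the correlations were TMM-scaled. The ± is the standard error for log2 differences. The tests were checked on simulated data.

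The 9 genes, the pathway lists and the marker lists were chosen with earlier results of these data known. All 9 are described; of the other lists, counts are given with up to 3 called genes of smallest p, and 1 result of the secretase list is not reported here. For each of the 9, the genes of highest correlation were taken among those whose mean log2 CPM was 1 or more. Alternatives were DESeq2 1.42.0, no filter on low counts, RLE size factors, no library block, the first run of each library alone, single blocks, culture experiment or set as a block, and leaving out each library at maturation, the axon stage and the stage comparisons. Of these, 2 named in the closing section were chosen after seeing the data.

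The axon sets come from culture names in the labels. In B6, 21 of 21 pairs of 1 set deviated from their group means together (correlation over 0.1), and in WSB 19 of 21 did. In the first NPC block, replicate numbers did so in 17 of 18 pairs, and in the second, culture names did in 3 of 3 pairs per strain. At maturation, 39 of 48 pairs of 1 culture experiment did so.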

Additional observations from a re-analysis of the deposited data

Results flagged for a closer look

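In 4 of the 126 groups of 4 to 10 libraries tested, 1 library stood farther from the rest than Dixon's 95% critical value allows, where chance flags about 1 in 20. App was 1354 CPM in mature B6 ID-8 replicate 2 and 1061 to 1083 CPM in the other 3. In the WSB control cut library of set W1, Mapt was 1786 CPM against 566 to 687 CPM in the other 3, and Bace1 was 185 CPM against 103 to 107.5 CPM. Ncstn was 182 CPM in B6 ID-8 progenitor replicate 1 and 113 to 135 CPM in the other 5.

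Responses that differed between strains by a test of the difference itself were those of App (0.76) and Clu (-2.14) to ID-8 in progenitors, both log2 values of WSB minus B6. The change from progenitors to axon cultures differed for Psen2 (1.25) and Apoe (4.65). The change from progenitors to mature cultures differed for Psen2 (1.11) and Apoe (3.19), and maturation cannot be told apart from its own batch.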

How the results depend on the processing

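Over the alternatives that kept all replicates, 1469 of the values kept their direction and their side of the threshold, 20 passed where they had not, 36 no longer passed and 5 changed sign. Over the fits that left out a library, 1522 kept both, 8 passed newly and 9 no longer passed. The cause of these changes was not tested, except that fits on 1 library block hold fewer libraries.

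The counts below describe how calls of the 9 genes depend on the setting, and nothing particular to the 9 is read from them. The share of all genes called is given above for some of these settings only. Among the 9 genes, 2 were called between strains in progenitors in the second library block alone (5 in all libraries). For ID-8 in B6 progenitors 1 was called in the first block with no replicate block and 4 with the replicate block (7 in all libraries). For the strain difference of that response, 2 were called; 1 was with RLE size factors and 1 with first runs only, 0 with no filter, with no library block, in the first or second block alone and in the first with the replicate block, and 6 in the second with the culture name as a block, which was chosen after seeing the data. For ID-8 in mature WSB cultures 1 was called by DESeq2 and 2 with the culture experiment as a block (0 otherwise). For ID-8 in axon cultures, with the set as a block and without WSB ID-8 cut replicate 3, also chosen after seeing the data, 2 were called in uncut B6, 1 in uncut WSB and 1 in cut B6 (0 otherwise). Between maturation and progenitors, no library block gave 6 calls in B6 (2 with it) and 5 in WSB (3 with it), and leaving out 1 library gave 2 to 4 in B6. Values that changed sign there without the block were App at 0.73, Apoe at 1.15 and Ncstn at -0.42 in B6, and Aplp2 at 0.42 and Ncstn at -0.49 in WSB. Psen2, at 4.08 to 22.6 CPM, had the fewest counts behind its values.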
